A study of Mus musculus with 6 samples.

Results

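The deadenylation and decapping machinery was followed through 10 genes: Cnot1, Cnot2, Cnot3, Cnot4, Cnot6, Cnot7, Cnot8, Ddx6, Dcp2 and Xrn1, of 27961 gene names in the files. Every array probe that the files name with one of these symbols was taken, which gave 27 of 41174 probes. Of the 27, 20 were kept because in at least 1 group both arrays read them well above background (21049 of all probes met this), and each of the 10 genes had at least 1 kept probe. The measured RNA was that of the machinery's own genes, so the values say in which fraction each messenger RNA (mRNA) was recovered and nothing about the proteins. The authors' deposited table places Cnot1 and Cnot7 on chromosome 8, Cnot2 on 10, Cnot3 on 7, Cnot4 on 6, Cnot6 and Cnot8 on 11, Ddx6 and Xrn1 on 9 and Dcp2 on 18, with no genome build named.

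The study measured RNA on 6 one-colour mouse arrays of primordial germ cells, the embryonic precursors of eggs and sperm, made in culture from embryonic stem cells. All 3 groups came from the same kind of cell: V6.5-derived stem cells of mixed C57BL/6 and 129SV strain that carry Dazl-GFP-V5, a DAZL protein fused to GFP and a V5 tag. Feeder cells had been removed, and the stem cells had then differentiated for 12 days. The authors' deposited table labels all 3 groups UV (UVinput, UVPABP1 and UVGFP), for ultraviolet crosslinking, so by these labels crosslinking does not separate the groups. The input group (2 arrays) is total RNA with no antibody. The PABP1 IP group (2 arrays) is RNA recovered with an antibody to the poly(A)-binding protein PABP1. The GFP IP group (2 arrays) is RNA recovered with an antibody to the GFP tag of DAZL. The series names input and PABP1 IP as its controls, so the comparisons ask how RNA bound by tagged DAZL differs from total RNA and from RNA bound by PABP1. Whether replicates are separate cultures is not stated in the labels, and p-values therefore reflect the spread between these arrays, which may be technical. No group lacks the tagged protein, so RNA that an antibody to GFP recovers without it was not measured here.

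Most eukaryotic mRNAs carry a poly(A) tail that PABP1 coats, and their decay usually starts when deadenylases shorten that tail. The CCR4-NOT complex, built on the CNOT1 scaffold, is the main cytoplasmic deadenylase. RNA-binding proteins, microRNA complexes and germ-line factors such as NANOS proteins recruit it to chosen mRNAs. After deadenylation the helicase DDX6 and its partners promote decapping by DCP2, and the exonuclease XRN1 then degrades the uncapped RNA. DAZL is a germ-line protein that binds untranslated regions of mRNAs and also binds PABP1.

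Each array read 43379 spots, of which 41.5% to 52.6% were well above background and 0 were saturated. Levels are given as relative signal, the background-subtracted signal divided by the 75th percentile of its array. That percentile was lowest in input (63.6 and 75.4), then PABP1 IP (105 and 146), then GFP IP (158 and 163). Replicates correlated across kept probes at 0.991 (input), 0.981 (PABP1 IP) and 0.980 (GFP IP). Slide 1 held the input arrays with PABP1 IP replicate 1 and GFP IP replicate 2, and slide 2 held the other array of each IP. Of 11 markers of primordial germ cells, 9 had a kept probe, while Prdm14 and Ddx4 met that filter in no group. All 6 pluripotency markers were kept. The Dazl mRNA itself differed by 3.78 ± 0.27 (log2, SE) between GFP IP and input at its brighter probe (adjusted p = 0.00147). At that probe PABP1 IP and input differed by -1.80 ± 0.27 (adjusted p = 0.00382). The other kept Dazl probe was well above background on neither input array and was at least 4.31-fold higher in GFP IP. With another background correction (normexp) its log2 difference was 0.31 (adjusted p = 0.176). No comparison of the Pabpc1 probe passed the threshold (log2 differences -0.87, -0.13 and -0.74, each ± 0.69).

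A difference is the log2 of the ratio of relative signal between 2 groups of 2 arrays. It is given with its standard error, and it was called at a limma adjusted p below 0.05 over all kept probes. In GFP IP against input, 6 of the 20 member probes were higher and 9 lower. That is 15 called, or 75%, where 53.2% of all kept probes were called (20.7% higher and 32.4% lower). In PABP1 IP against input, 6 member probes were higher and 12 lower, which is 18 called, or 90%, against 54.7% of all kept probes (30.8% higher and 23.9% lower). In GFP IP against PABP1 IP, 7 were higher and 5 lower, which is 12 called, or 60%, against 62.8% of all kept probes (24.4% higher and 38.3% lower). The shares called are a description, because the members were chosen and filtered and a probe's kept state depends on its brightest group. The 3 comparisons share arrays and are not independent of each other. The groups are RNA fractions of the same kind of cell, so a difference is one of recovered RNA. Within any group, arrays of cell populations cannot tell fewer cells of a type from less RNA per cell.

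In the PABP1 fraction all called probes of Cnot7, Cnot8 and Dcp2 were higher than in input, by up to 3.19 on the log2 scale. Those of Ddx6, Xrn1, Cnot1, Cnot3, Cnot4 and Cnot6 were lower, by as much as -2.82 (Ddx6), and Cnot2 had 1 probe higher and 1 lower. With spike-in scaling no member probe was called lower there: the sign of 10 of the 12 changed, all but Ddx6 and Cnot3 A_52_P631098, and 5 of these 10 were then called higher. The median member probe stood at -0.75 in PABP1 IP against input, where the median of all kept probes was 0.13, and 14 of the 20 lay below that median. In GFP IP against input the member median was -0.57 beside -0.38 for all kept probes, with 9 above and 11 below it. Between the IPs it was -0.30 beside -0.46, with 14 above and 6 below.

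**Figure D1:**
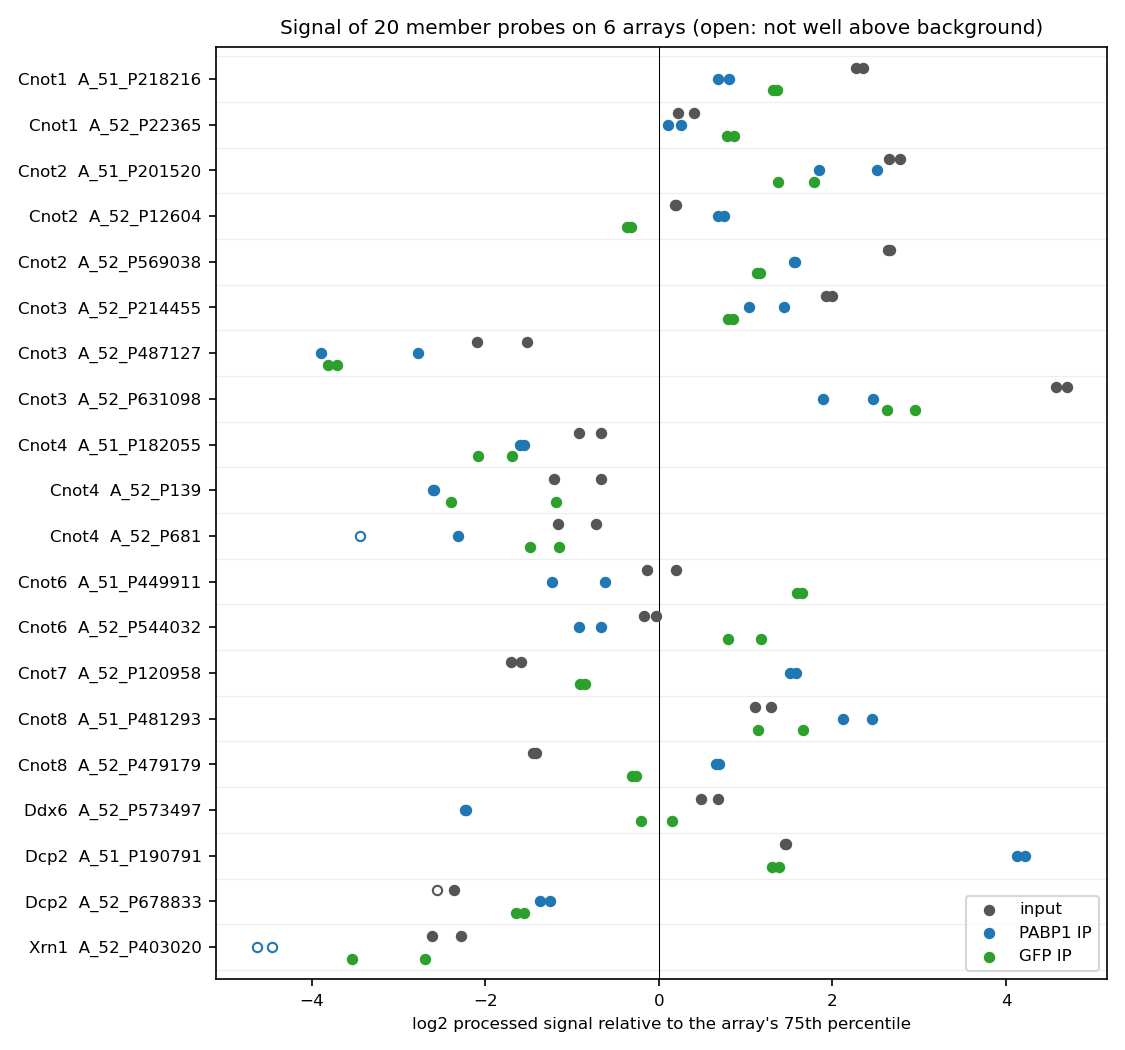
Log2 processed signal of the 20 kept member probes relative to the 75th percentile of each array (horizontal axis), with 1 point per array and open points for arrays where the probe was not well above background. The PABP1 IP points of Cnot7 (relative signal 3.0 and 2.86) and of the brighter Dcp2 probe (18.6 and 17.5) lie to the right of all other points in their lanes, and those of Ddx6 (0.212 and 0.214) lie to the left.

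These directions depend on what the arrays are scaled to. Scaling to the spike-in controls in place of the 75th percentile moved the median of all kept probes by 1.02 in GFP IP against input, by 2.26 in PABP1 IP against input and by -1.24 in GFP IP against PABP1 IP. Quantile normalization moved it by 0.26, -0.04 and 0.31. With spike-in scaling the calls over all kept probes became 6571 higher and 519 lower in GFP IP against input (4358 and 6830 as reported), 17584 and 425 in PABP1 IP against input (6481 and 5034), and 1189 and 13331 between the IPs (5143 and 8072). Quantile normalization gave 6105 higher and 6361 lower between the IPs. Member calls under spike-in scaling were 6 higher and 0 lower, 13 higher and 0 lower, and 1 higher and 11 lower in the same order. In GFP IP against input the SE of each member probe was 0.54 with spike-in scaling, against 0.15 to 0.43 as reported. A call lost there can therefore depend on the larger SE as well as on the shift. A change of scaling by 1 value per array cannot move a probe's distance from the median of all probes, so that distance is given for the main members below.

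**Figure D2:**
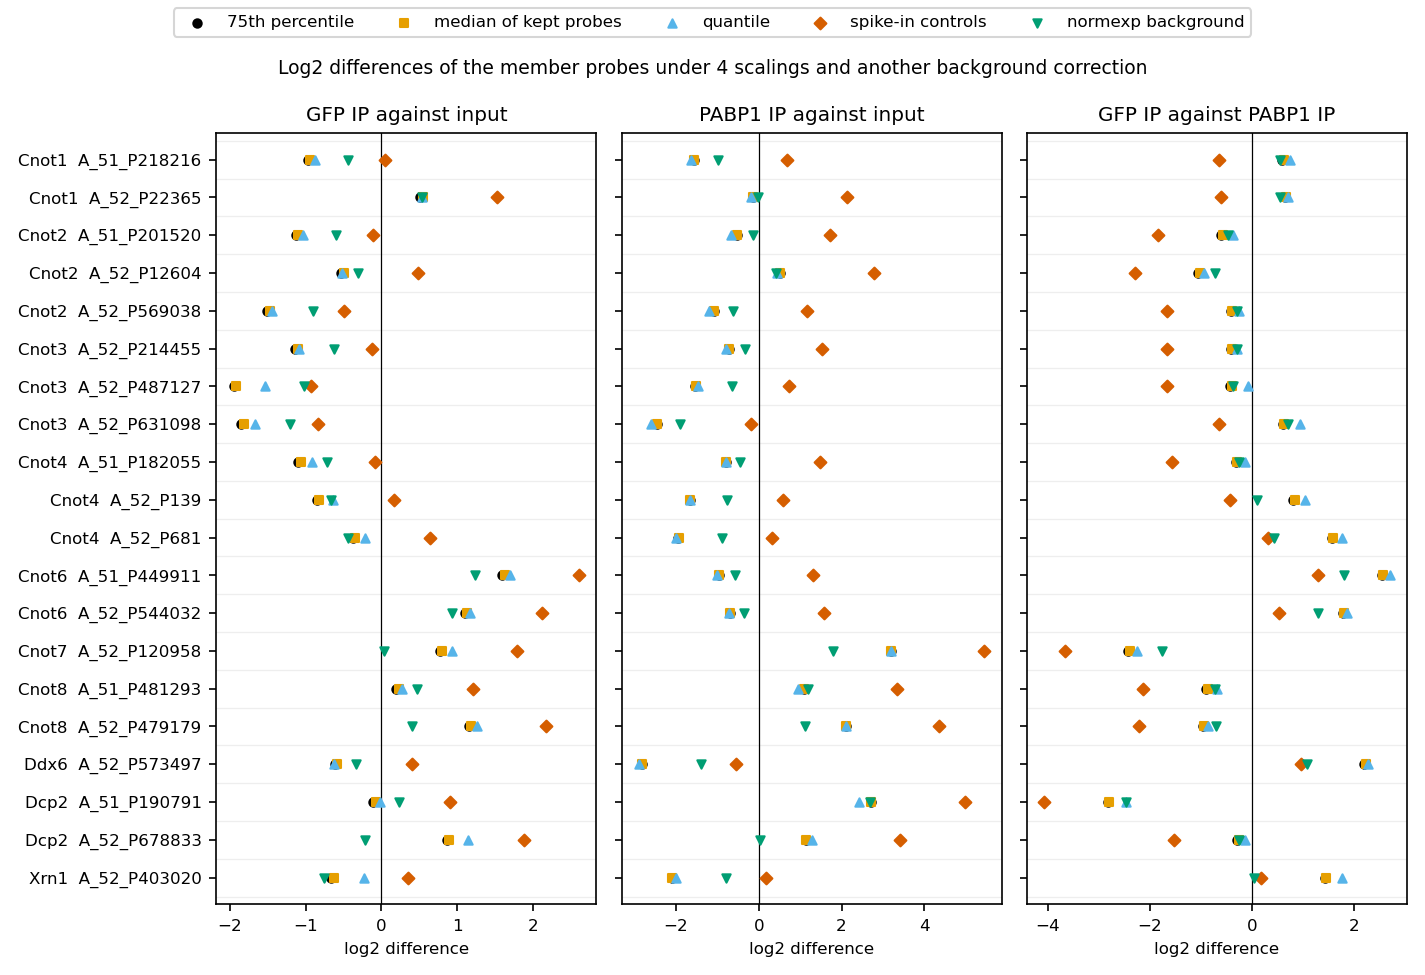
Log2 difference of each kept member probe (horizontal axis) in the 3 comparisons under the 75th percentile, the median of kept probes, quantile normalization, spike-in controls and a normexp background correction. Spike-in scaling shifts every probe of a comparison by about the same amount, to the right in both comparisons with input and to the left in GFP IP against PABP1 IP.

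Cnot1 encodes the scaffold that holds the complex together and docks its recruiters. Its brighter probe, A_51_P218216, had relative signals of 5.11 and 4.83 in input (replicates 1 and 2, the order used throughout), 1.60 and 1.75 in PABP1 IP and 2.57 and 2.50 in GFP IP. The groups did not overlap, with input highest and PABP1 IP lowest. It fell by 1.57 ± 0.16 in PABP1 IP against input (adjusted p = 0.00137) and by 0.97 ± 0.16 in GFP IP against input (adjusted p = 0.00602), but with spike-in scaling these differences were 0.69 and 0.044, past the threshold in neither case. Between the IPs it was 0.60 ± 0.16 higher in GFP IP (adjusted p = 0.0217), and -0.65 with spike-in scaling. The other kept Cnot1 probe, A_52_P22365, read 1.32 and 1.17 in input, 1.08 and 1.19 in PABP1 IP and 1.82 and 1.72 in GFP IP. Here GFP IP was the highest group, and input and PABP1 IP overlapped. GFP IP exceeded PABP1 IP by 0.65 ± 0.17 at this probe (adjusted p = 0.0205; -0.60 with spike-in scaling) and input by 0.51 ± 0.17 (adjusted p = 0.0495), while PABP1 IP and input differed by -0.13 ± 0.17 (adjusted p = 0.541). Thus the probes of Cnot1 had opposite signs in GFP IP against input and the same sign between the IPs.

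Several of the Cnot1 calls rested on single arrays. At A_51_P218216 the GFP IP call against input was lost without input replicate 1 (adjusted p = 0.0526), and the call between the IPs was lost without any 1 array other than PABP1 IP replicate 2 (adjusted p from 0.0575 to 0.0837). At A_52_P22365 the call against input was lost without each of the 6 arrays in turn (adjusted p from 0.0627 to 0.229) and with a slide block (0.46, adjusted p = 0.0609). Its call between the IPs was lost without PABP1 IP replicate 1, GFP IP replicate 1 or GFP IP replicate 2 (adjusted p = 0.0816, 0.0828 and 0.0578).

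CNOT2 and CNOT3 form the module that stabilises the scaffold and takes part in recruiting the complex. The 3 Cnot2 probes do not share an accession, since A_51_P201520 and A_52_P569038 carry the same one and A_52_P12604 that of another transcript variant. A_52_P569038 read 6.26 and 6.33 in input, 2.97 and 2.94 in PABP1 IP and 2.19 and 2.25 in GFP IP. It fell by 1.5 ± 0.15 in GFP IP against input (adjusted p = 0.00218; -0.49 with spike-in scaling, adjusted p = 0.544) and by 1.09 ± 0.15 in PABP1 IP against input (adjusted p = 0.00305; 1.17 with spike-in scaling). Relative to the median of all kept probes these are -1.13 and -1.22, and no array left out ended either call. A_51_P201520 read 6.86 and 6.27 in input, 3.58 and 5.71 in PABP1 IP and 3.44 and 2.60 in GFP IP. The PABP1 IP replicates lay far apart at this probe, and GFP IP was the lowest group. Its difference was -1.13 ± 0.29 in GFP IP against input (adjusted p = 0.0230), and the other comparisons did not pass the threshold (-0.54 and -0.60).

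The transcript variant probe of Cnot2 behaved otherwise. A_52_P12604 read 1.15 and 1.14 in input, 1.60 and 1.68 in PABP1 IP and 0.778 and 0.804 in GFP IP, so that PABP1 IP was highest and GFP IP lowest without overlap. It was 1.05 ± 0.15 lower in GFP IP than in PABP1 IP (log2 difference -1.05, adjusted p = 0.00273), and this call held under every alternative tried. Against input it was 0.52 ± 0.15 in PABP1 IP (adjusted p = 0.0348) and -0.53 ± 0.15 in GFP IP (adjusted p = 0.0332; 0.48 with spike-in scaling). The PABP1 IP call was lost without each of the 6 arrays in turn (adjusted p from 0.0586 to 0.159). The GFP IP call was lost without either input or either GFP IP array (adjusted p from 0.0862 to 0.156). At A_51_P201520 the GFP IP call against input was lost without input replicate 1, input replicate 2 or GFP IP replicate 2 (adjusted p = 0.110, 0.0806 and 0.0864), and a call between the IPs appeared without PABP1 IP replicate 1 (-0.93, adjusted p = 0.0415).

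The 3 Cnot3 probes share an accession and were lower than input in both IPs. The brightest, A_52_P631098, read 25.9 and 23.9 in input, 5.55 and 3.73 in PABP1 IP and 6.20 and 7.73 in GFP IP. Both IPs lay far below input, by 2.45 ± 0.25 for PABP1 IP (log2 difference -2.45, 5.47-fold, adjusted p = 0.00145) and by 1.85 ± 0.25 for GFP IP (log2 difference -1.85, 3.59-fold, adjusted p = 0.00387). With spike-in scaling the differences were -0.19 (adjusted p = 0.734) and -0.83 (adjusted p = 0.249). Relative to the median of all kept probes they were -2.58 and -1.47. The IPs differed by 0.61 ± 0.25 at this probe (adjusted p = 0.0857), and this passed the threshold without PABP1 IP replicate 1 (0.89, adjusted p = 0.0368).

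The other Cnot3 probes were dimmer. A_52_P214455 read 3.99 and 3.81 in input, 2.71 and 2.05 in PABP1 IP and 1.74 and 1.81 in GFP IP. It fell by 1.14 ± 0.20 in GFP IP against input (adjusted p = 0.00717; -0.12 with spike-in scaling) and by 0.72 ± 0.20 in PABP1 IP against input (adjusted p = 0.0268; 1.53 with spike-in scaling). A_52_P487127 read 0.234 and 0.349 in input, 0.146 and 0.0675 in PABP1 IP and 0.0715 and 0.0767 in GFP IP, with a spread between the PABP1 IP arrays that spans both GFP IP values. It fell by 1.95 ± 0.41 in GFP IP (adjusted p = 0.0134; -0.93 with spike-in scaling) and by 1.53 ± 0.41 in PABP1 IP (adjusted p = 0.0265; 0.73 with spike-in scaling), each against input. Neither probe passed the threshold between the IPs (-0.41 and -0.42). At A_52_P214455 the GFP IP call was lost without input replicate 1 (adjusted p = 0.0531), and the PABP1 IP call without input replicate 1, input replicate 2 or PABP1 IP replicate 2 (adjusted p = 0.127, 0.106 and 0.0932). At A_52_P487127 the GFP IP call was lost without GFP IP replicate 1 or input replicate 2 (adjusted p = 0.0562 and 0.0694). Its PABP1 IP difference became -0.97 without PABP1 IP replicate 2 (adjusted p = 0.0628), and its call was also lost without input replicate 1 or 2 (adjusted p = 0.0531 and 0.126).

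CNOT6 is the catalytic subunit of the endonuclease-exonuclease-phosphatase family, the CCR4 of the complex, and a deadenylase that can remove tail still covered by PABP1. Its mRNA was the member most raised in the GFP fraction. A_51_P449911 read 0.910 and 1.15 in input, 0.427 and 0.652 in PABP1 IP and 3.03 and 3.13 in GFP IP, and A_52_P544032 read 0.975 and 0.886, 0.528 and 0.633, and 2.27 and 1.74. At both probes GFP IP was highest and PABP1 IP lowest, with no overlap. Against PABP1 IP the GFP IP was 2.54 ± 0.26 higher at the first (5.83-fold, adjusted p = 0.000978) and 1.78 ± 0.21 higher at the other (3.44-fold, adjusted p = 0.00142; 0.54 with spike-in scaling, adjusted p = 0.371). Against input it was 1.59 ± 0.26 higher (3.01-fold, adjusted p = 0.00617) and 1.10 ± 0.21 higher (2.14-fold, adjusted p = 0.00992). The files describe the clone behind A_51_P449911 as having an apparent retained intron, so that probe may read an unusual transcript.

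In PABP1 IP the Cnot6 probes were below input, by 0.95 ± 0.26 (log2 difference -0.95, adjusted p = 0.0277) and 0.69 ± 0.21 (log2 difference -0.69, adjusted p = 0.0395), but with spike-in scaling the differences were 1.30 and 1.57. At A_51_P449911 both GFP IP calls held under every alternative tried. Its PABP1 IP call was lost without input replicate 1 (adjusted p = 0.0644), input replicate 2 (adjusted p = 0.141) or PABP1 IP replicate 1 (adjusted p = 0.0868). At A_52_P544032 the call of GFP IP against input was lost without input replicate 1 or 2 (adjusted p = 0.0520 and 0.0625). The call of PABP1 IP against input at that probe was lost without each of the input and PABP1 IP arrays in turn (adjusted p from 0.0602 to 0.174).

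CNOT7 and CNOT8 are closely related CAF1-type deadenylases, and a complex holds one or the other. The kept Cnot7 probe, A_52_P120958, read 0.307 and 0.334 in input, 3.0 and 2.86 in PABP1 IP and 0.557 and 0.534 in GFP IP. The groups did not overlap, and the PABP1 IP arrays stood far above the rest. PABP1 IP exceeded input by 3.19 ± 0.16 (9.14-fold, adjusted p = 0.000854), the largest difference among the member probes in that comparison, and GFP IP fell short of PABP1 IP by 2.42 ± 0.16 (log2 difference -2.42, 5.37-fold, adjusted p = 0.00053). Both calls held under every alternative tried, spike-in scaling included. GFP IP exceeded input by 0.77 ± 0.16 (adjusted p = 0.0120). That call was lost without input replicate 1, input replicate 2 or GFP IP replicate 1 (adjusted p = 0.0892, 0.0597 and 0.0559), and with normexp background the difference was 0.03.

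Cnot8 moved the same way in the PABP1 fraction. A_52_P479179 read 0.376 and 0.366 in input, 1.58 and 1.62 in PABP1 IP and 0.835 and 0.810 in GFP IP, so that the GFP IP lay between the others without overlap. It was 2.11 ± 0.15 higher in PABP1 IP than in input (4.31-fold, adjusted p = 0.000912) and 0.96 ± 0.15 lower in GFP IP than in PABP1 IP (log2 difference -0.96, adjusted p = 0.00368), and both calls held under every alternative tried. GFP IP was 1.15 ± 0.15 above input (adjusted p = 0.00350), a call lost with normexp background (0.40, adjusted p = 0.0546). The brighter probe, A_51_P481293, read 2.45 and 2.15 in input, 4.37 and 5.49 in PABP1 IP and 3.15 and 2.20 in GFP IP, and its GFP IP arrays overlapped input. It was 1.09 ± 0.25 higher in PABP1 IP than in input (adjusted p = 0.0149) and differed by -0.89 ± 0.25 between GFP IP and PABP1 IP (adjusted p = 0.0250), while GFP IP and input differed by 0.20 ± 0.25 (adjusted p = 0.520). Its PABP1 IP call was lost without input replicate 1, input replicate 2 or PABP1 IP replicate 2 (adjusted p = 0.0559, 0.0851 and 0.0646). Its call between the IPs was lost without PABP1 IP replicate 2 or GFP IP replicate 2 (adjusted p = 0.0961 and 0.0949), at the threshold without either input array (adjusted p = 0.05) and with quantile normalization (adjusted p = 0.0609).

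Among the catalytic subunits, Cnot6 had the opposite signs to Cnot7 and Cnot8 in both comparisons with PABP1 IP, as scaled to the 75th percentile, and the difference between genes was not tested. Relative to the median of all kept probes, the Cnot6 probes stood at 3.0 and 2.24 in GFP IP against PABP1 IP, the Cnot7 probe at -1.97 and the Cnot8 probes at -0.44 and -0.50. The same probes stood in PABP1 IP against input at -1.08 and -0.81 (Cnot6), 3.06 (Cnot7) and 0.96 and 1.98 (Cnot8).

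**Figure D3:**
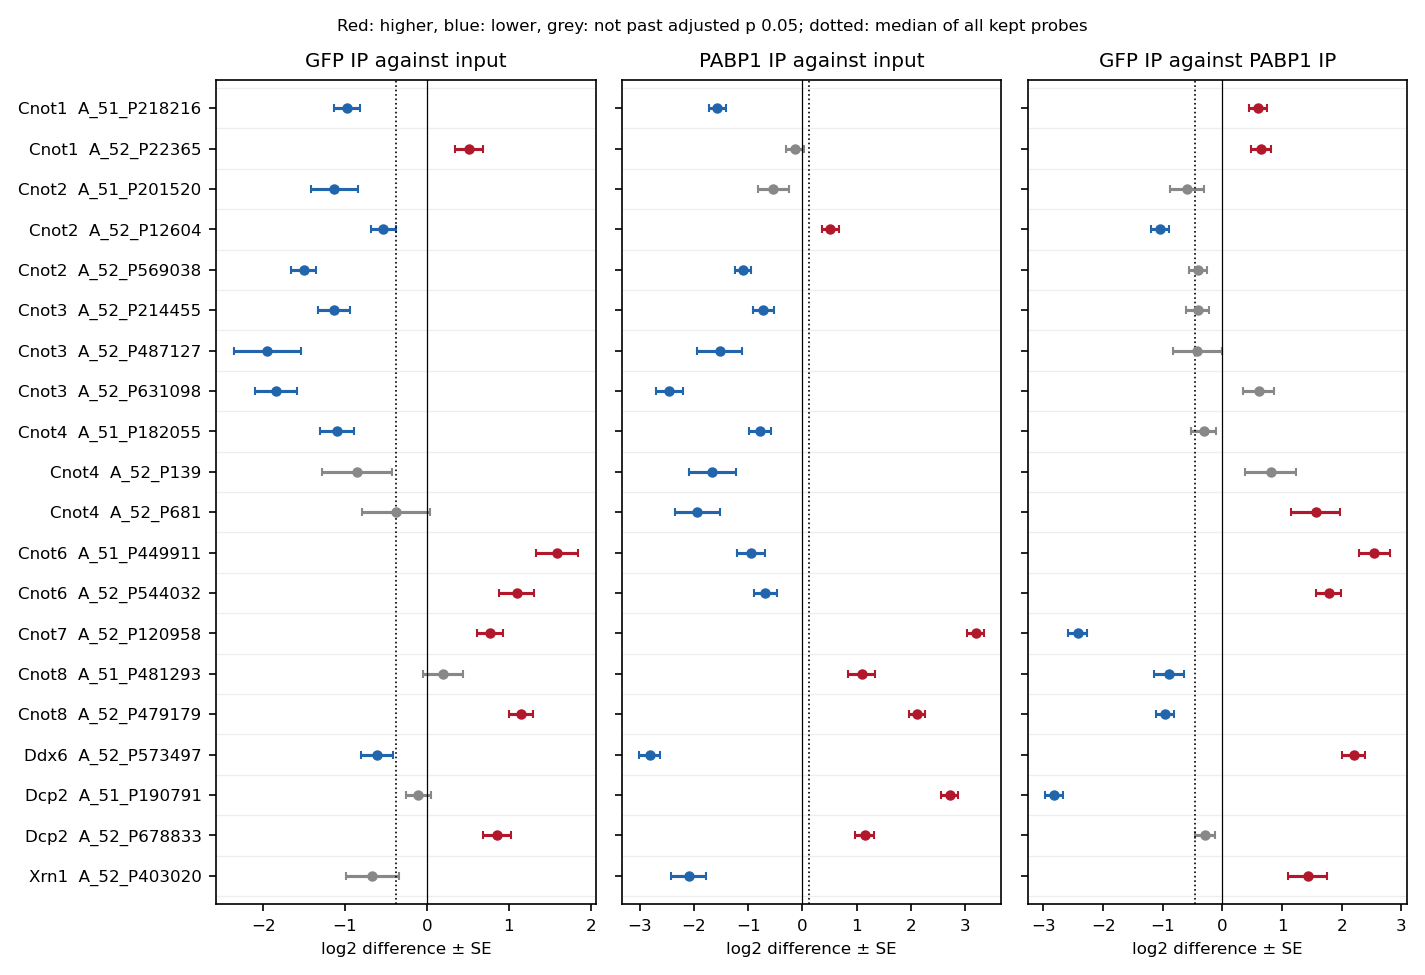
Log2 difference ± SE (limma, 2 arrays per group) of each kept member probe in the 3 comparisons, coloured by call (higher red, lower blue, not past the threshold grey); a dotted line marks the median over all kept probes. Cnot7 (3.19) and Dcp2 (2.72) stand to the right and Ddx6 (-2.82) to the left in PABP1 IP against input, and their signs are turned between the IPs.

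CNOT4 is an E3 ubiquitin ligase associated with the complex. Its 3 kept probes share an accession and were all below input in PABP1 IP. A_51_P182055 read 0.631 and 0.529 in input, 0.341 and 0.330 in PABP1 IP and 0.236 and 0.309 in GFP IP. A_52_P139 read 0.432 and 0.630, 0.166 and 0.164, and 0.191 and 0.439 in the same order, and A_52_P681 read 0.448 and 0.606, 0.0919 and 0.201, and 0.359 and 0.450, with PABP1 IP replicate 1 not well above background. At the last 2 probes the GFP IP arrays overlapped input. The differences of PABP1 IP from input were -0.78 ± 0.21 (adjusted p = 0.0248), -1.66 ± 0.43 (adjusted p = 0.0234) and -1.94 ± 0.41 (adjusted p = 0.0120), and with spike-in scaling they were 1.47, 0.60 and 0.32. Only A_51_P182055 passed in GFP IP against input (-1.10 ± 0.21, adjusted p = 0.00945; -0.08 with spike-in scaling). Only A_52_P681 passed between the IPs (1.56 ± 0.41, adjusted p = 0.0212; 0.32 with spike-in scaling).

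Each Cnot4 call depended on at least 1 single array. In PABP1 IP against input the call of A_51_P182055 was lost without each of the input and PABP1 IP arrays in turn (adjusted p from 0.0682 to 0.137). That of A_52_P139 was lost without the same arrays (adjusted p from 0.0529 to 0.114), and that of A_52_P681 without input replicate 2 (adjusted p = 0.0669). The GFP IP call of A_51_P182055 was lost without input replicate 1 (adjusted p = 0.0670), and that of A_52_P681 against PABP1 IP without GFP IP replicate 1 or 2 (adjusted p = 0.0511 and 0.0822). For A_52_P139, leaving out GFP IP replicate 2 gave -1.45 in GFP IP against input (adjusted p = 0.0230; -0.85 with all arrays), and leaving out GFP IP replicate 1 gave 1.41 between the IPs (adjusted p = 0.0190; 0.81 with all arrays).

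DDX6 is a DEAD-box helicase that binds CNOT1 and links deadenylation to translational repression and decapping. Its single probe, A_52_P573497, read 1.41 and 1.60 in input, 0.212 and 0.214 in PABP1 IP and 0.867 and 1.11 in GFP IP. The groups did not overlap, and the PABP1 IP arrays lay far below the others. PABP1 IP was 2.82 ± 0.19 below input (log2 difference -2.82, 7.04-fold, adjusted p = 0.000903), which was -2.94 relative to the median of all kept probes, and GFP IP was 2.20 ± 0.19 above PABP1 IP (4.60-fold, adjusted p = 0.000698). With spike-in scaling the differences were -0.56 (adjusted p = 0.322) and 0.96 (adjusted p = 0.103), with the same signs. Both calls held without any single array. GFP IP was below input by a smaller amount (-0.61 ± 0.19, adjusted p = 0.0450; 0.40 with spike-in scaling). That call was lost without any 1 array other than GFP IP replicate 2 and with a slide block (-0.53, adjusted p = 0.0629). It was also lost with scaling to the median of kept probes (-0.58, adjusted p = 0.0515) and with normexp background (-0.33, adjusted p = 0.145). Of 16 alternatives, 4 left it called with the same sign.

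DCP2 is the enzyme that removes the cap. The brighter Dcp2 probe, A_51_P190791, read 2.75 and 2.73 in input, 18.6 and 17.5 in PABP1 IP and 2.62 and 2.48 in GFP IP. The PABP1 IP arrays stood well above the others, and the GFP IP arrays lay just below input. It was 2.72 ± 0.15 higher in PABP1 IP than in input (6.57-fold, adjusted p = 0.000854) and fell by 2.82 ± 0.15 from PABP1 IP to GFP IP (7.07-fold, adjusted p = 0.00053), and both calls held under every alternative tried. GFP IP and input differed by -0.11 ± 0.15 (adjusted p = 0.584). A_52_P678833, a dim probe with the same accession, read 0.170 and 0.195 in input, where replicate 1 was not well above background, 0.420 and 0.386 in PABP1 IP and 0.341 and 0.319 in GFP IP. It was 1.15 ± 0.17 above input in PABP1 IP (adjusted p = 0.00369) and 0.86 ± 0.17 above input in GFP IP (adjusted p = 0.0107), but with normexp background these were 0.04 and -0.22. Between the IPs it differed by -0.29 ± 0.17 (adjusted p = 0.185), so the probes of Dcp2 had the same sign there and differed in size by 2.53. The GFP IP call of A_52_P678833 was lost without input replicate 1 or GFP IP replicate 1 (adjusted p = 0.0808 and 0.0518).

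XRN1 degrades decapped RNA. The kept probe, A_52_P403020, was dim throughout, with 0.206 and 0.163 in input, 0.0404 and 0.0458 in PABP1 IP and 0.0861 and 0.155 in GFP IP, and neither PABP1 IP array was well above background. PABP1 IP was therefore at least 2.97-fold below input (adjusted p = 0.00427; the log2 difference was 0.17 with spike-in scaling), and GFP IP was at least 1.87-fold above PABP1 IP (adjusted p = 0.0127). These bounds set the dim group at its own signal or, where that is higher, at the dimmest signal that its arrays still read as well above background. With normexp background the difference between the IPs was 0.04 (adjusted p = 0.874), with spike-in scaling it was 0.18 (adjusted p = 0.767), and without PABP1 IP replicate 1 the call was lost (adjusted p = 0.0578). GFP IP and input differed by -0.67 ± 0.32 (adjusted p = 0.133), and without GFP IP replicate 2 by -1.09 (adjusted p = 0.0304).

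The 7 probes that were not kept gave no usable level. Cnot1 A_51_P144489, Cnot4 A_52_P561545 and A_52_P795551, Cnot6 A_51_P365790 and Xrn1 A_51_P289706 were well above background on 0 of 6 arrays, with processed signals between 1.57 and 9.17. Cnot4 A_52_P457022 was well above background on 1 array (signal 2.62 to 13.8). Cnot7 A_52_P410732, which carries the same accession as the kept Cnot7 probe, was so on 2 arrays, 1 of each IP (signal 1.87 to 19.9). The 2.42 difference of Cnot7 between the IPs thus rests on 1 probe.

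**Figure D4:**
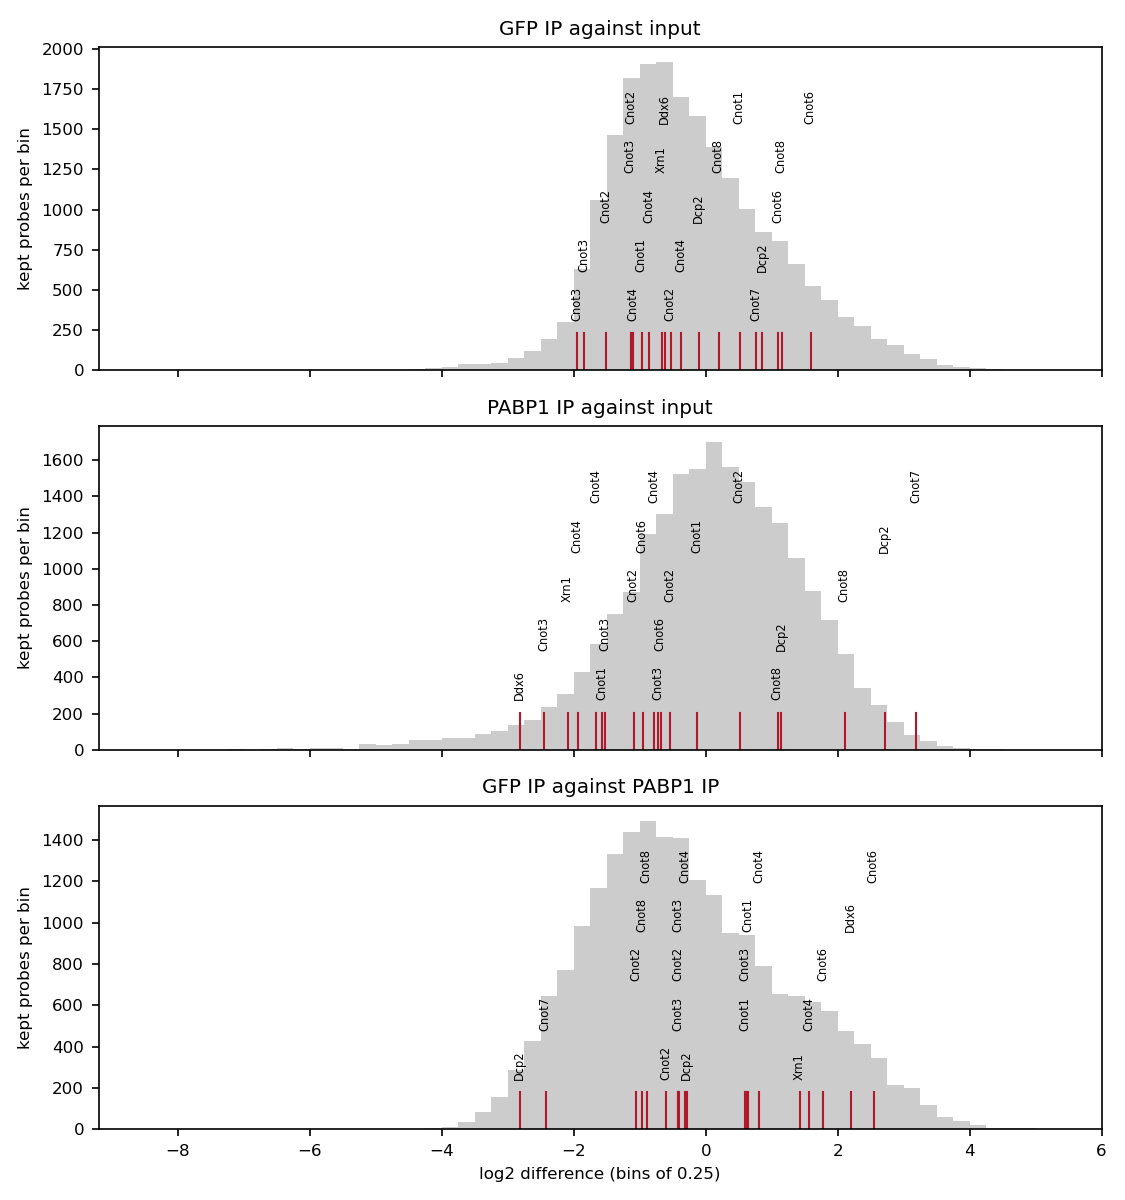
Number of kept probes per bin of log2 difference (grey) in each comparison, with the 20 kept member probes as red ticks labelled by gene. In PABP1 IP against input Ddx6 (-2.82) is the lowest and Cnot7 (3.19) the highest of the member ticks, and 14 of 20 ticks lie below the median of 0.13.

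Because PABP1 IP and GFP IP each have an array on both slides, the difference between them was also read within each slide. The sign was the same on slides 1 and 2 for 19 of the 20 member probes, the exception being Cnot3 A_52_P487127 (-0.93 and 0.08). The 2 slides together hold the arrays of the reported difference, so this count is no separate check of it. The share over all kept probes was not counted. Cnot7 gave -2.49 and -2.36 and the brighter Dcp2 probe -2.91 and -2.74, in slide order. Ddx6 gave 2.39 and 2.02, Cnot6 A_51_P449911 2.87 and 2.21 and Cnot6 A_52_P544032 1.72 and 1.84. Within slide 1, the only slide with input, all 20 probes had the sign of the reported difference in PABP1 IP against input and 19 of 20 did in GFP IP against input, where the exception, Cnot8 A_51_P481293, was -0.06. These contrasts with input reuse both input arrays and 1 of the 2 arrays of each IP. Their signs therefore largely follow the reported ones and are no separate check. With slide as a block in the fit, 6 member probes were higher and 13 lower in PABP1 IP against input, 5 and 8 in GFP IP against input, and 8 and 7 between the IPs. Of the 21049 kept probes this fit called 13133, 12458 and 15836 in the same order, more than the reported 11515, 11188 and 13215.

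The machinery around the members was read from a list of 79 other decay genes, of which 74 had a kept probe, each read by its brightest. Of the 74, 28 were higher and 29 lower in PABP1 IP against input (median 0.02), 24 and 21 in GFP IP against input (median -0.03), and 25 and 25 between the IPs (median -0.14). Over all kept probes 54.7%, 53.2% and 62.8% were called in these comparisons, which count probes and not 1 probe per gene. With spike-in scaling these became 52 and 0, 30 and 1, and 4 and 45, and quantile normalization gave 31 higher and 15 lower between the IPs. Without input replicate 1 or 2, fewer of these genes were called in both comparisons with input, and so were fewer of all kept probes. Without GFP IP replicate 1 the same held in GFP IP against input.

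The counts by role are a description, and no difference between roles was tested. In PABP1 IP against input, where 30.8% of all kept probes were higher and 23.9% lower, 13 of 19 genes of decapping and the LSM ring were higher and 1 lower, led by Lsm1 (2.73 ± 0.16), a subunit of the ring that binds shortened tails. Of 9 genes of microRNA silencing 0 were higher and 7 lower, led by Ago3 (-2.76 ± 0.39, and -0.50 with spike-in scaling), an Argonaute protein. The other Ago3 probe read -0.97. Of 9 genes of nonsense-mediated decay 0 were higher and 7 lower, led by the kinase gene Smg1 (-1.91 ± 0.19, and 0.34 with spike-in scaling). The 4 kept Smg1 probes ranged from -3.29 to -1.49. Of 11 other CCR4-NOT genes and adaptors 6 were higher and 3 lower, with Btg3 (2.48 ± 0.16), whose protein binds CAF1-type deadenylases, at one end and Cnot6l (-2.21 ± 0.18; 0.046 with spike-in scaling), the close relative of Cnot6, at the other. Cnot6l was also 2.82 ± 0.18 higher in GFP IP than in PABP1 IP (1.58 with spike-in scaling), the direction of both Cnot6 probes. Of 9 other deadenylases and tail-modifying enzymes 2 were higher and 5 lower, led by the uridylyltransferase gene Tut7 (-2.73 ± 0.20, and -0.47 with spike-in scaling). The other Tut7 probe read -1.02. Of 17 exonuclease and exosome genes 7 were higher and 6 lower, led by Exosc8 (1.66 ± 0.21) and Dis3l (-1.97 ± 0.18; 0.29 with spike-in scaling). Each of these named differences had an adjusted p below 0.05.

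Between the IPs, where 24.4% of all kept probes were higher in GFP IP and 38.3% lower, 6 of 9 genes of microRNA silencing were higher in GFP IP and 0 lower, led by Tnrc6c (2.44 ± 0.17; 1.20 with spike-in scaling), an adaptor that joins Argonaute to CCR4-NOT. Of 9 genes of nonsense-mediated decay 6 were higher and 3 lower, led by Upf3b (2.39 ± 0.22, and 1.15 with spike-in scaling). The 4 kept Upf3b probes ranged from 0.32 to 4.50. Of 17 exonuclease and exosome genes 1 was higher and 10 lower, led by the exosome subunit gene Exosc4 (-2.18 ± 0.20, and -0.83 at its other probe). Of 19 decapping and LSM genes 4 were higher and 9 lower, with Dcp1a (2.16 ± 0.16) and Patl2 (-2.33 ± 0.20) at the ends. Dcp1a was 0.92 with spike-in scaling (adjusted p = 0.118), and -0.30 at its other probe. Each named difference between the IPs had an adjusted p below 0.05. Of 9 other deadenylases and tail-modifying enzymes 4 were higher and 1 lower, led by Tut4 (2.99 ± 0.47, and 1.75 with spike-in scaling). Of 11 CCR4-NOT genes and adaptors 4 were higher and 2 lower, with Cnot6l (2.82 ± 0.18) and Nanos3 (-2.21 ± 0.31) at the ends. Nanos3 encodes a germ-line recruiter of CCR4-NOT. In GFP IP against input, where 20.7% of all kept probes were higher and 32.4% lower, 12 of 19 decapping and LSM genes were higher and 3 lower. Of 17 exonuclease and exosome genes 1 was higher and 9 lower, and of 11 CCR4-NOT genes and adaptors 5 and 2. Of 9 genes each, microRNA silencing had 1 and 2, nonsense-mediated decay 2 and 3, and other deadenylases and tail-modifying enzymes 3 and 2. The leading genes of each role that differed by at least 1.5 there all had an adjusted p below 0.05. The higher ones were Btg3 (2.54 ± 0.16), Noct (2.0 ± 0.15) and Lsm1 (1.75 ± 0.16). The lower ones were Ago4 (-2.39 ± 0.65), Tut7 (-2.28 ± 0.20, and -1.27 with spike-in scaling), Smg9 (-1.87 ± 0.20, and -0.85 with spike-in scaling) and the exosome helicase gene Mtrex (-1.79 ± 0.23, and -0.78 with spike-in scaling). The other Tut7 probe read -0.95. The Ago4 call was lost without input replicate 1, input replicate 2 or GFP IP replicate 1 (adjusted p = 0.103, 0.101 and 0.106).

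Other genes followed the profiles of Cnot7 and Ddx6 closely. By the root mean squared distance of centred log2 profiles over the 6 arrays, Cnot7 was nearest to Ostc (0.0764), Tpgs2 (0.0774) and Ptplb (0.0808). Ddx6 was nearest to Zhx3 (0.0824), Zfp462 (0.104) and Ncor1 (0.116). With only 6 arrays in 3 groups, such a match says little more than that the group levels were alike.

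The authors' deposited table of group means could be tied to 6 member probes through an accession that only 1 probe and 1 entry carry. In the authors' deposited table Ddx6 had means of 19.4 in input, 5.32 in PABP1 IP and 21.0 in GFP IP, the PABP1 IP again lowest. The GFP IP mean of Ddx6 was there slightly above that of input, the opposite order to the probe's relative signals. Cnot6 had 10.6, 11.9 and 63.4 at one entry and 8.97, 5.76 and 32.0 at the other of the authors' deposited table, with GFP IP highest at both. At the first of these entries the PABP1 IP mean was above that of input, the opposite order to the probe's relative signals. For Cnot1 the authors' deposited table gave 22.5, 11.2 and 17.6 at the brighter probe's entry and 4.65, 5.01 and 9.23 at the other, and for the Cnot2 variant 7.96, 8.35 and 6.58. Across 25540 matched probes its means correlated with the group means of the scanner values at a Spearman's rho of 0.825 (input), 0.860 (PABP1 IP) and 0.854 (GFP IP), so they are not a plain rescaling of them. Between unlike groups rho was nearly as high (0.802 to 0.836).

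The signal of markers of other cell types also differed between the groups, which are RNA fractions of the same kind of cell. Each list was summed as relative signal over its kept genes, and the lowest and highest array of each group are given. The 5 kept of 6 cardiac markers summed to 10.4 to 10.7 in input, 3.97 to 4.83 in PABP1 IP and 2.20 to 2.38 in GFP IP. The 2 kept of 4 neural markers (Pax6 and Neurod1 were not kept) summed to 3.49 to 4.47, 2.38 to 3.66 and 11.3 to 14.3 in the same order, and the 3 kept of 4 fibroblast markers to 54.3 to 67.7, 59.9 to 70.9 and 19.2 to 31.1. The 2 kept of 4 endothelial and blood markers summed to 1.94 to 2.26, 1.04 to 1.31 and 7.5 to 8.30, and the 2 kept of 3 trophoblast markers to 12.2 to 12.8, 19.0 to 21.6 and 5.48 to 6.28. Of 5 visceral endoderm markers 2 were kept and 0 were well above background on both input arrays. Germ cell markers summed to 91.5 to 92.9 in input, 157 to 159 in PABP1 IP and 118 to 131 in GFP IP, with Dazl among them, and pluripotency markers to 494 to 500, 499 to 502 and 574 to 599. The part of these differences in the values of the decay genes was not tested.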

How the data were processed

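RNA of 6 samples (input, PABP1 IP and GFP IP, 2 arrays each) was measured on one-colour Agilent arrays. The scanner files hold spot intensity, and their processed signal was made by Agilent Feature Extraction 9.1.3.1, which subtracts background within each array, per the file headers. The authors also deposited a table of group means of signal, normalized to median values in GeneSifter per its header, and a quality score (-0.294 to 1.00); neither entered a test.

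Control and outlier spots were left out. Log2 processed signals were averaged per probe, and the array's log2 75th percentile over all non-control spots was subtracted. Member probes were taken by the gene name in the files. For the other lists 22951 of 41174 probes were named through an accession in a RefSeq table of GRCm38.p6. The genome build of the array design is not given in the sources used here, and no coordinates or sequences are printed.

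A linear model with group as the only factor (3 residual degrees of freedom) was fitted to the 21049 kept probes by limma 3.58.1 under R 4.3.3. P-values are two-sided, were adjusted by Benjamini and Hochberg's method within a comparison, and were called below 0.05. With 2 arrays per group, the number of arrays limits the precision. The code was tested on simulated data. Slide and scan time coincide, so slide stands for both.

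The text names every member probe, the decay gene with the largest difference per role and direction where that is at least 1.5 on the log2 scale, the 3 nearest profiles of Cnot7 and Ddx6, and Dazl and Pabpc1. The members and lists were chosen with earlier results of these data known, so no list is tested. Alternatives were other scalings, normexp background with an offset of 50, no filter, 1 probe per gene, slide and replicate blocks, slide 1 alone and each array left out.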

Additional observations from a re-analysis of the deposited data

How the results depend on the processing

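Of the called member probes, 1 of 15 in GFP IP against input, 3 of 18 in PABP1 IP against input and 5 of 12 in GFP IP against PABP1 IP stayed called with the same sign under every alternative, and 4, 9 and 7 stayed called without any single array. No called member changed sign without a single array. Spike-in scaling gave 0 lower member probes in GFP IP against input (7090 of all kept probes called), 13 higher and 0 lower in PABP1 IP against input (18009 called) and 1 higher and 11 lower between the IPs. It turned the sign of called differences, the causes of which were not tested: in GFP IP against input to 0.044 (Cnot1 A_51_P218216), 0.48 (Cnot2 A_52_P12604) and 0.40 (Ddx6), and between the IPs to -0.65 and -0.60 (Cnot1). In PABP1 IP against input it turned them to 0.69 (Cnot1), 1.17 (Cnot2 A_52_P569038), 1.53 and 0.73 (Cnot3), 1.47, 0.60 and 0.32 (Cnot4), 1.30 and 1.57 (Cnot6), 0.17 (Xrn1), 0.29 (Dis3l), 0.34 (Smg1), 0.046 (Cnot6l) and 0.45 (Dazl). With normexp background 3 member probes (and 3911 of all kept probes) were higher in GFP IP against input and Dcp2 A_52_P678833 turned to -0.22. Testing every probe without a filter called 21792 probes in GFP IP against input and left 6 lower member probes in PABP1 IP against input, where 4348 of all probes were lower. Reading 1 probe per gene, which tests fewer members by construction, gave 2 higher and 5 lower in GFP IP against input, 3 and 6 in PABP1 IP against input and 4 and 3 between the IPs. Over all genes read this way the counts were 2796 and 5622, 4622 and 3634, and 3388 and 6375 in the same order. A kept probe was present for 14995 gene names. Leaving out each array in turn gave 2 to 5 higher and 3 to 9 lower member probes in GFP IP against input (5690 to 11366 of all kept probes called), 4 to 5 and 5 to 12 in PABP1 IP against input (7488 to 11273) and 4 to 7 and 4 to 6 between the IPs (10838 to 12412). The lone array of a group is then assumed to vary like the other groups, and the same holds within slide 1. In both comparisons with input the lowest counts came without input replicate 1 or 2; between the IPs 10838 came without PABP1 IP replicate 1 and 4 higher without GFP IP replicate 2.

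The labels do not tie equal replicate numbers together. The replicates' deviations correlated at 0.15 (input with PABP1 IP), -0.02 (input with GFP IP) and -0.62 (PABP1 IP with GFP IP), and the slides cross the numbers of the IPs. With the replicate block the member counts were 5 higher and 6 lower, 5 and 9, and 7 and 4 in the order above, so that 4, 4 and 1 called members were lost. Over all kept probes 9389, 10108 and 11883 were then called. A crossed pairing of the IPs, chosen after seeing the data, gave 6 and 9, 6 and 12, and 7 and 5, with 11886, 11965 and 13816 of all kept probes called. The dimmest probes, Xrn1 and those with an array not above background, are limited by signal over background.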
